A study of Mus musculus with 4 samples.

Results

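Serpins are a superfamily of proteins that share one fold, and their genes were taken here as every gene symbol in the count data that begins with Serpin. There were 64 such genes among 24453 counted, 27 of clade B (Serpinb) and 37 of the other clades. The RNA came from back skin of mice on the day of birth (postnatal day 0), from epidermal cells sorted as EpCAM-positive, Sca1-positive and high for α6-integrin, which enriches for progenitors of the epidermis between hair follicles. The groups were 2 control libraries, whose genotype the labels give only as control, and 2 libraries of the genotype Ring1a-/- Ring1b-/I53A. The mutant mice lack Ring1a (gene Ring1) and carry a null allele of Ring1b (gene Rnf2) over the I53A allele, whose product has no ubiquitin ligase activity, so the comparison does not separate these alleles from each other. Whether the null alleles were deleted in the whole animal or in skin alone, and whether a library came from 1 animal, is not given in the sources used here, so p-values measure the spread between these libraries.

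An inhibitory serpin offers a protease an exposed loop as bait. When the protease cuts the loop, the serpin folds around it and traps it in an inactive complex. Clade B serpins lack a classical signal peptide and act mostly inside cells, and several of them are abundant in stratified epithelia, where they restrain the proteases of cell shedding, inflammation and cell death. Most other clades are secreted and act in plasma or in the extracellular matrix, and a few members, such as Serpinb5 and Serpinh1, inhibit no protease. PRC1 is a Polycomb complex that binds promoters rich in CpG dinucleotides and places ubiquitin on histone H2A, with Ring1a or Ring1b as its catalytic subunit.

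Of the 64 genes, 15 had no read in any library, 49 had at least 1 read and 35 passed the filter on low counts and were tested. The genes without a read included those for α1-antitrypsin (Serpina1a to Serpina1e) and corticosteroid-binding globulin (Serpina6), which are liver products. A count of 0 allows a level of up to 0.132 to 0.199 CPM (counts scaled to library size), taking 3 counts per library as the limit. For Serpina1a to Serpina1e, 14.8% to 69.3% of the 100-base runs of the longest transcript also occur in other genes. Reads from such runs may not have been counted, so this limit may not hold for these genes. Total counts per library ran from 15505018 to 21543385. The mutant libraries held Ring1 at 2.54 and 2.91 CPM against 24.2 and 33.3 CPM in the controls, in the direction of their labels. Rnf2 was at 58.5 and 45.8 CPM in controls and at 58.9 and 59.1 CPM in mutants and did not pass the test (log2 fold change 0.18, edgeR adjusted p = 0.681), so its level does not check the label of the null allele. By Xist and Y-linked reads mutant replicate 1 was male, with Xist at 11.0 CPM, and the other libraries were female, with Xist at 5998 to 8390 CPM. The epidermal markers Krt5, Krt14, Itga6 and Epcam were present in every library. Of 10 basal markers Krt15 fell, against 1.04% of all tested genes, and 9 did not pass the test. Their log2 fold changes were above 0 for 2 and below 0 for 8, with a median of -0.18, and 5 had groups that did not overlap. The summed level of the 10, carried mostly by Krt5, was 30696 and 34224 CPM in controls and 24149 and 21333 CPM in mutants. Of the 16 fibroblast markers none was at 0 and 4 rose (Fbln2, Thy1, Col6a1 and Dcn), against 5.68% of all tested genes. Of these markers 15 had a log2 fold change above 0, against 48.4% of all tested genes, with a median of 0.54 against -0.01. The groups did not overlap for 13 of the 16, against 47.9% of all tested genes. Postn, the most abundant and the one marker below 0, carried much of their summed level, which was 3021 and 3201 CPM in controls and 3597 and 3827 CPM in mutants.

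Serpinb2 and Serpine2 rose in the mutant epidermis, Serpinb7 fell, and the other 32 tested Serpin genes did not pass the test (quasi-likelihood test of edgeR, with p adjusted by Benjamini-Hochberg over all genes and a threshold of 0.05). Serpinb7 and Serpinb2 are neighbours in one cluster on chromosome 1 and moved in opposite directions. Among all 14550 tested genes 6.71% passed, 5.68% higher and 1.04% lower, so 3 of 35 is close to the share of all genes. Of the 35 Serpin genes, 8 had a log2 fold change of at least 1 in either direction, against 12.7% of all tested genes. The promoters of the 3 genes that passed are shown here because they differ in the CpG content by which PRC1 targets are known. Each runs from 250 bases before to 50 after a RefSeq transcription start on GRCm38.p6, 5′ to 3′ on the gene's strand. For Serpinb7 and Serpine2 this start lies inside the longer gene that GENCODE M21 annotates, so the annotations differ on where these genes begin. Capitals mark CG pairs, the letters TATAAA or their reverse complement, and the letters TGANTCA (N is any base), which is a binding sequence known for AP-1 factors.
Serpinb7, chr1:107422439-107422738, plus strand: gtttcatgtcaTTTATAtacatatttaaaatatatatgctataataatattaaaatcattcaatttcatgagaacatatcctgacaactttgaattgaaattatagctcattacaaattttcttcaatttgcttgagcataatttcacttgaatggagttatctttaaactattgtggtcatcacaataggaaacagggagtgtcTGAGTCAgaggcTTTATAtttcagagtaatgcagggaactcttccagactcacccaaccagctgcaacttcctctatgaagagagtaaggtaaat
Serpinb2, chr1:107511173-107511472, plus strand: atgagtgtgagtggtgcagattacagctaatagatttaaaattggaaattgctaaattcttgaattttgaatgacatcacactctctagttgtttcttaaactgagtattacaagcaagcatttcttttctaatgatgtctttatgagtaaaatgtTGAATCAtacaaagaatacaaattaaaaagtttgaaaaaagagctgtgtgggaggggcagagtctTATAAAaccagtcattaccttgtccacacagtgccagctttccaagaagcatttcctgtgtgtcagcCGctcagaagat
Serpine2, chr1:79858616-79858915, minus strand: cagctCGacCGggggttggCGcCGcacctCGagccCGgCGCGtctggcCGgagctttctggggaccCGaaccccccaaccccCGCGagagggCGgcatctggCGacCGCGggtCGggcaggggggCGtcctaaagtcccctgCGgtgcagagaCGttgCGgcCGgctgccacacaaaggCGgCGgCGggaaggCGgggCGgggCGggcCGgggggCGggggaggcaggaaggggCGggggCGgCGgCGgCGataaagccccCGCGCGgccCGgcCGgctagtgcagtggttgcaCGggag

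The Serpinb7 window held no CG pair, that of Serpinb2 held 1 and that of Serpine2 held 41. The Serpinb7 and Serpinb2 windows each held 1 TGANTCA, beginning 45 and 94 bases before the start, and TATAAA beginning 33 and 29 bases before it (on the minus strand in Serpinb7, which held another 239 bases before the start). The Serpine2 window held neither run of letters. No TATAAA overlapped a TGANTCA.

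Serpinb7 encodes an inhibitor of the upper epidermis whose loss in people causes the palmoplantar keratoderma of Nagashima type. Control replicates 1 and 2 held 258 and 275 of its counts (15.4 and 18.2 CPM), while mutant replicates 1 and 2 held 14 and 45 (0.891 and 1.98 CPM). The groups did not overlap, and both mutant libraries lay far under both controls. The log2 fold change was -3.46 ± 0.39 (SE, edgeR adjusted p = 0.000653), and the fall passed the test in each of the 14 alternative settings, with log2 fold changes from -4.22 to -3.07. Per kilobase of its longest transcript the control level of 8.90 CPM made it the eighth highest of the tested Serpin genes, and the mutant level of 0.762 CPM per kilobase the 24th. Of 13 tested markers of the layers above the basal one, none passed, with 7 log2 fold changes above 0 and 6 below (median 0.31). Their summed level, carried mostly by Krt1, was 3792 and 4454 CPM in controls and 2686 and 4404 CPM in mutants. The part of these layers in the fall of Serpinb7 was not tested.

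Serpinb2 encodes plasminogen activator inhibitor 2, which inhibits urokinase and is known as a stress-induced protein of keratinocytes and macrophages. It was at 7.74 and 9.67 CPM in control replicates 1 and 2, and at 61.3 and 60.9 CPM in mutant replicates 1 and 2. The mutant libraries were close to each other and far above both controls (mean 8.71 ± 1.37 against 61.1 ± 0.256 CPM, SD, n = 2 each). The log2 fold change was 2.81 ± 0.21 (SE, edgeR adjusted p = 6.51e-05), and the rise passed in each of the 14 alternative settings, with log2 fold changes from 2.66 to 2.98. Macrophages also express Serpinb2, and RNA of immune markers such as Ptprc and Csf1r was present in every library of the sorted cells. None of the 9 tested immune markers passed the test. Of the 9, 4 had groups that did not overlap, each higher in the mutants, against 47.9% of all tested genes in either direction. Ptprc, the leukocyte marker CD45, was at 10.8 and 11.6 CPM in controls and 16.9 and 27.0 CPM in mutants (edgeR adjusted p = 0.0677). The macrophage gene Csf1r was at 35.2 and 40.7 CPM in controls and 43.7 and 70.1 CPM in mutants (edgeR adjusted p = 0.183), and Lyz2 and Fcer1g were the others. The summed level of the immune markers, of which Cd74 was the largest part, was 260 and 478 CPM in controls and 266 and 551 CPM in mutants. The part of these cells in the rise of Serpinb2 was not tested.

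Serpine2 encodes protease nexin 1, a secreted inhibitor of thrombin, urokinase and plasmin that binds the matrix. It was at 16.2 and 12.5 CPM in control replicates 1 and 2 and at 29.1 and 28.6 CPM in mutant replicates 1 and 2. The groups did not overlap, and the mean was 14.3 ± 2.64 CPM in controls and 28.9 ± 0.348 CPM in mutants (SD, n = 2 each). The rise was 1.01 ± 0.22 on the log2 scale (SE, edgeR adjusted p = 0.0214). The call was lost without control replicate 1 (log2 fold change 1.21, edgeR adjusted p = 0.110) and without control replicate 2 (0.84, edgeR adjusted p = 0.278). Fibroblasts are known to express Serpine2 too, and the part of the fibroblast markers above in its rise was not tested. In bulk RNA, a change in the share of cells of a type and a change in RNA per cell cannot be told apart.

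**Figure D1:**
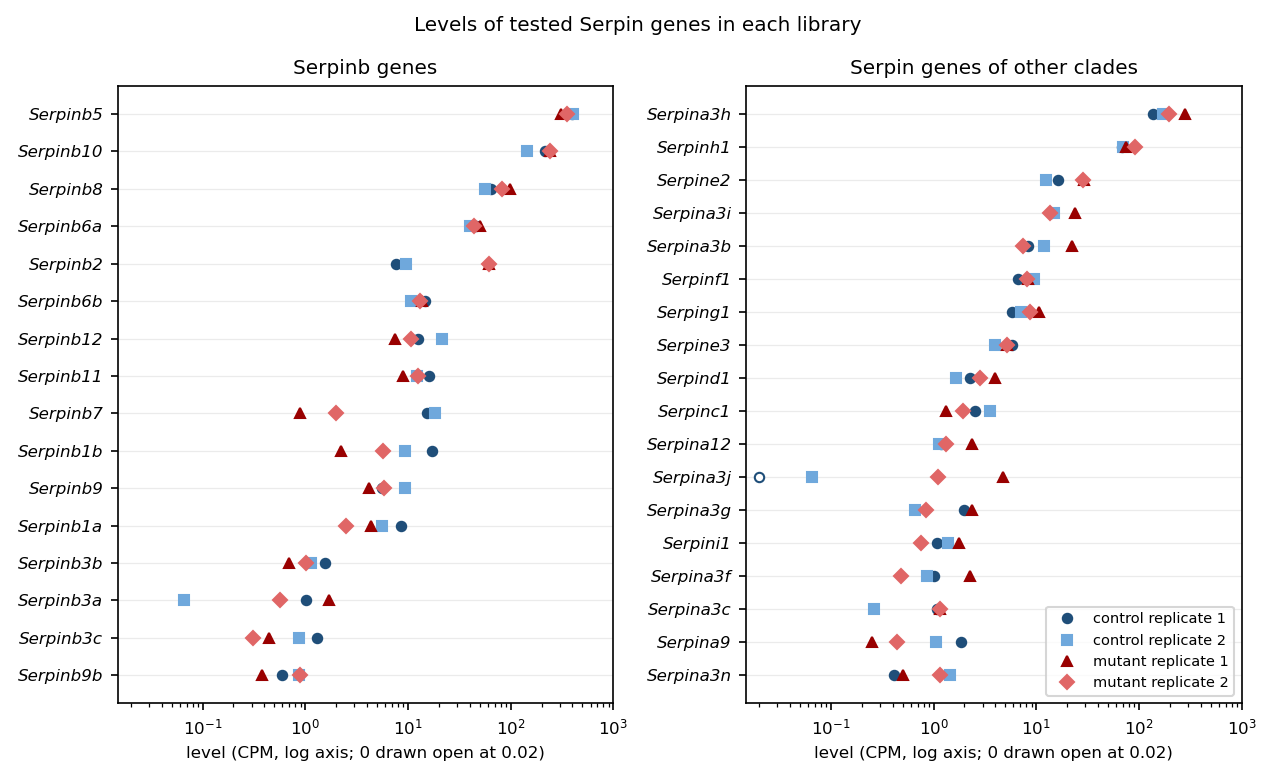
Level of tested Serpin genes in CPM (log axis) in the 4 libraries, with 16 Serpinb genes on the left and 18 of the 19 of other clades on the right, ordered by mean, and a level of 0 drawn open at the left edge. Serpinb2 and Serpinb7 have mutant libraries clear of the controls, and several Serpina3 genes have mutant replicate 1 apart from the other 3 libraries.

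The Serpinb genes were the more abundant share of the family. They summed to 825 and 748 CPM in control replicates 1 and 2 and to 806 and 840 CPM in mutant replicates 1 and 2, so the groups overlapped. The other clades summed to 282 and 317 CPM in controls and to 482 and 378 CPM in mutants, without overlap, and Serpina3h alone held 138 and 170 CPM of this in controls and 280 and 196 CPM in mutants. Without Serpina3h the other clades summed to 144 and 147 CPM in controls and 202 and 182 CPM in mutants. These sums were not tested.

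Gene by gene, most log2 fold changes of clade B were below 0 and most of the other clades above 0. Of 16 tested Serpinb genes, 6 had a log2 fold change above 0 and 10 below, with a median of -0.33. Of 19 tested genes of other clades, 15 were above 0 and 4 below, with a median of 0.40, while over all tested genes 48.4% were above 0 and the median was -0.01. Of the tested genes, 10 of 16 Serpinb and 11 of 19 others had groups that did not overlap, against 47.9% of all tested genes. Over the 14 alternative settings the Serpinb median stayed between -0.68 and -0.18 and that of the other clades between 0.19 and 0.73. The difference between these medians was described and not tested, since members of a cluster are not independent. Of the 35 tested genes, 30 would have passed the filter on the control libraries alone, and the others (Serpina3c, Serpina3j, Serpina3n, Serpinb3a and Serpinb9b) passed only with the mutant libraries counted.

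**Figure D2:**
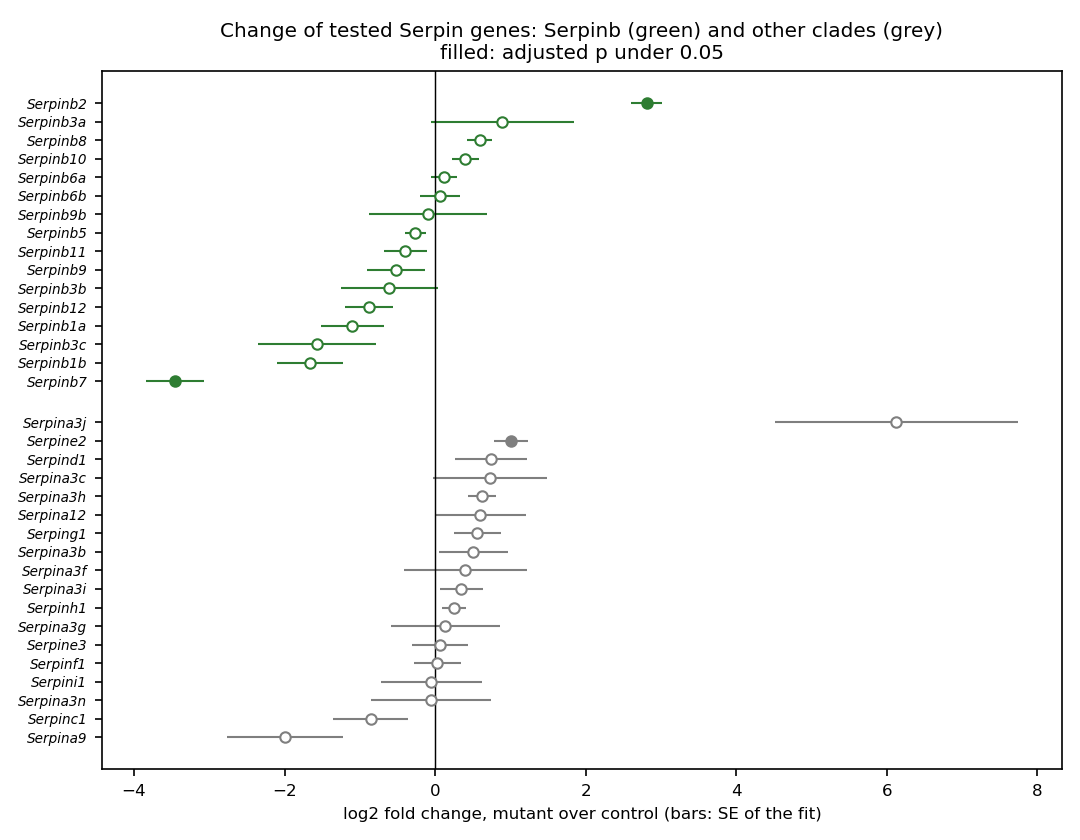
Log2 fold change, mutant over control, of the same Serpin genes with the SE from the fit, clade B in green and the other clades in grey. Filled points passed the test (Serpinb2, Serpinb7 and Serpine2), and the points of clade B lie mostly left of 0 while those of the other clades lie mostly right of it.

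Among the Serpinb genes, 12 lie in a cluster of 749.3 kb on chromosome 1, from 106861173 to 107610484 on GRCm38 (GENCODE M21). Each of the 12 had at least 1 read, and 10 were tested. Serpinb5 (maspin), a non-inhibitory member known as an epithelial tumour suppressor, begins the cluster and had the highest control level per kilobase in the family, at 150 CPM per kilobase. It was at 394 and 406 CPM in control replicates 1 and 2 and at 310 and 357 CPM in mutant replicates 1 and 2, without overlap, and did not pass the test (log2 fold change -0.26 ± 0.14 SE, edgeR adjusted p = 0.361). Serpinb10 was at 217 and 146 CPM in controls and at 240 and 239 CPM in mutants, with the mutant libraries above both controls (log2 fold change 0.40 ± 0.18 SE, edgeR adjusted p = 0.274). The annotation overlaps it with the end of Serpinb2 by 6476 bases on the same strand, and 5.23% of the 100-base runs of its longest transcript also occur in a Serpinb2 transcript, so reads between these genes are uncertain.

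Serpinb8, which inhibits furin-like proteases and whose loss in people causes a peeling skin disorder, ends the cluster. It was at 64.0 and 56.6 CPM in control replicates 1 and 2 and at 99.1 and 82.9 CPM in mutant replicates 1 and 2, without overlap, and missed the threshold (log2 fold change 0.59 ± 0.16 SE, edgeR adjusted p = 0.0615). It passed in 4 of 14 alternative settings, and its adjusted p ran from 0.00867 without mutant replicate 2 to 0.487 without control replicate 2 (edgeR). The others in which it passed were DESeq2 (adjusted p = 0.0349), the replicate number as a block (edgeR adjusted p = 0.0305), and the block with offsets for GC content and length (edgeR adjusted p = 0.0325). Serpinb12, an inhibitor of trypsin-like proteases in epithelia, was at 12.6 and 21.3 CPM in controls and 7.44 and 10.6 CPM in mutants (log2 fold change -0.88 ± 0.32 SE, edgeR adjusted p = 0.160). Serpinb11 was at 16.1 and 12.3 CPM in controls and 9.03 and 12.4 CPM in mutants, with groups that overlapped.

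The cluster's Serpinb3 genes, relatives of the human squamous cell carcinoma antigens, were near the limit of detection. Serpinb3c was at 1.31 and 0.861 CPM in controls and 0.445 and 0.309 CPM in mutants (log2 fold change -1.57 ± 0.78 SE, edgeR adjusted p = 0.332). Serpinb3d had no read in the controls and 7 and 5 in mutant replicates 1 and 2, at least 3.32-fold higher when 3 counts are taken as the limit for the control group, and was too low to be tested. Serpinb3a and Serpinb3b did not pass the test, and Serpinb13 had 2 reads, both in control replicate 1.

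Along this cluster the tested genes from Serpinb5 to Serpinb7 had log2 fold changes below 0, except Serpinb3a (0.90 ± 0.95 SE). Serpinb2, Serpinb10 and Serpinb8, which follow, were above 0, and only Serpinb7 and Serpinb2 passed the test. The order of these signs was not tested. Serpinb7 and Serpinb2 lie 58.73 kb apart on the same strand by their GENCODE ends, the one with the largest fall and the other with the largest rise among Serpinb genes. The neighbour on the other side of Serpinb7, Serpinb11, lies 19.18 kb away by the same annotation and did not pass the test (log2 fold change -0.39). The nearest tested genes outside the cluster, all on the Serpinb5 side, Vps4b, Kdsr and Bcl2, had log2 fold changes of -0.11, -0.07 and -0.03.

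**Figure D3:**
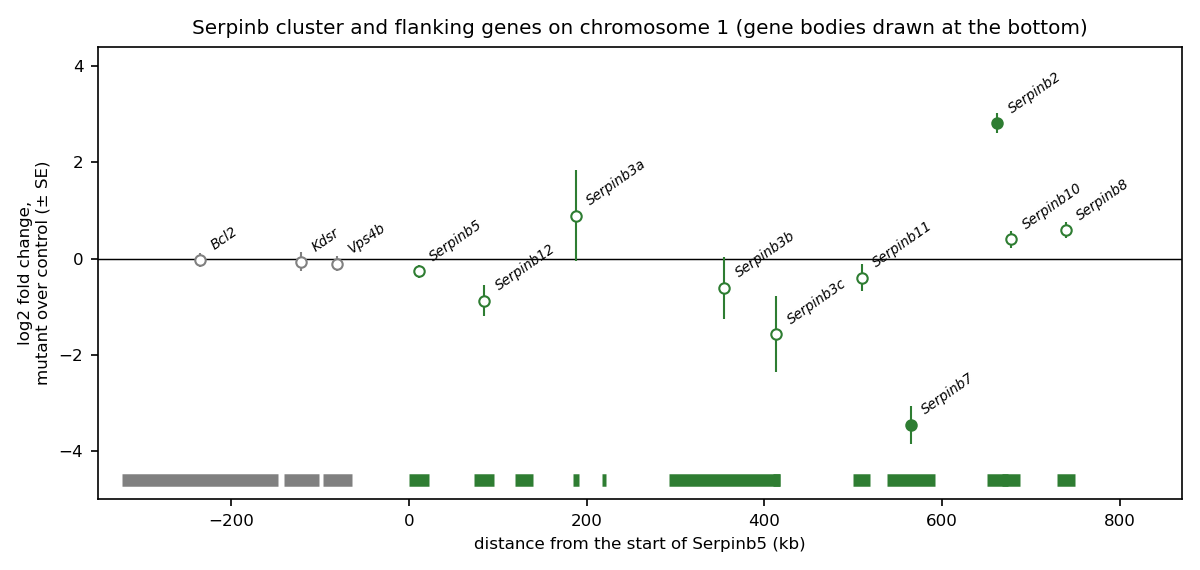
Log2 fold change, mutant over control, with SE, of the tested genes in and beside the Serpinb cluster, against distance in kb from the start of Serpinb5. Green marks Serpinb genes, grey the flanking genes and filled points those that passed the test, and bars at the bottom show gene bodies, including untested genes. Serpinb7 and Serpinb2 stand side by side at -3.46 and 2.81, and the 3 flanking genes are near 0.

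The 15 Serpinb genes of chromosome 13 lie between 32842092 and 34002794. None of the 6 tested there passed, and 5 of the 15 had no read. Of the 6, 2 had groups that did not overlap, against 47.9% of all tested genes. Both of these are genes of the Serpinb1 group, relatives of the inhibitor of neutrophil elastase. Serpinb1b was at 17.1 and 9.41 CPM in control replicates 1 and 2 and at 2.23 and 5.77 CPM in mutant replicates 1 and 2 (log2 fold change -1.66 ± 0.44 SE, edgeR adjusted p = 0.0525). It passed in 7 of 14 alternative settings, among them DESeq2 (adjusted p = 0.00666), RLE scaling (edgeR adjusted p = 0.0473) and the replicate block (edgeR adjusted p = 0.0256). Over the 14 settings its adjusted p ran from 0.00345 to 0.489. Serpinb1a was lower by a smaller amount, at 8.57 and 5.63 CPM in controls and 4.39 and 2.51 CPM in mutants (log2 fold change -1.10 ± 0.42 SE, edgeR adjusted p = 0.177).

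Serpinb6a, an inhibitor of cathepsin G and other proteases that many tissues express, was at 46.1 and 39.9 CPM in controls and 50.1 and 43.5 CPM in mutants. The groups overlapped, and its log2 fold change of 0.12 ± 0.17 (SE) did not pass the test (edgeR adjusted p = 0.804). Serpinb6b was at 14.8 and 10.8 CPM in controls and 13.7 and 13.2 CPM in mutants, with overlap. Serpinb9, an inhibitor of granzyme B, was at 5.54 and 9.28 CPM in controls and 4.20 and 5.86 CPM in mutants, also with overlap. Serpinb1c had 9 reads, all in mutant replicate 2, and Serpinb6e had 1 read in that library.

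Clade A holds the relatives of α1-antitrypsin and α1-antichymotrypsin. Of its 26 genes, 9 had no read and 10 were tested, 8 of them of the Serpina3 group, and none passed the test. Serpina3h, which GENCODE lists as a transcribed pseudogene, led the clade. It was at 138 and 170 CPM in control replicates 1 and 2 and at 280 and 196 CPM in mutant replicates 1 and 2, without overlap (log2 fold change 0.62 ± 0.19 SE, edgeR adjusted p = 0.0863). Of the 100-base runs in its longest transcript 4.21% occur in other genes, most often in Serpina3g.

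Serpina3j had 0 and 1 reads in control replicates 1 and 2 and 75 and 25 reads in mutant replicates 1 and 2, or 4.77 and 1.10 CPM. The gene passed the filter on low counts only with the mutant libraries counted. The ratio of the pooled levels was 83.0, with an exact binomial interval at 95% from 14.6 to 3312 that covers counting error only. It missed the threshold (edgeR adjusted p = 0.0521), and passed in 11 of 14 alternative settings, with adjusted p from 0.000531 to 0.306. The settings in which it did not pass were limma-voom (adjusted p = 0.0686) and the omission of control replicate 1 or 2 (edgeR adjusted p = 0.306 and 0.224).

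In the mutants, clade A levels were higher in replicate 1, the male library, than in replicate 2 for 7 of 10 tested genes, against 49.2% of all tested genes. Serpina3b was at 22.5 and 7.36 CPM in mutant replicates 1 and 2, beside 8.39 and 11.99 CPM in controls. Serpina3i was at 23.7 and 13.8 CPM in the mutants and 14.0 and 15.0 CPM in controls. The mutant groups of both genes overlapped with the controls. Without mutant replicate 1 the log2 fold changes of Serpina3b and Serpina3i turned negative (-0.45 and -0.07), and without mutant replicate 2 that of Serpina3b was 1.15 (edgeR adjusted p = 0.0174). The part of sex in this difference was not tested, and with 1 male library it cannot be told apart from that library.

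Lower in the clade, Serpina9, known from germinal centre B cells, was at 1.85 and 1.06 CPM in controls and 0.254 and 0.441 CPM in mutants (log2 fold change -1.99 ± 0.77 SE, edgeR adjusted p = 0.183). Serpina12, the secreted serpin vaspin, which inhibits kallikrein 7, was at 1.19 and 1.13 CPM in controls and 2.35 and 1.32 CPM in mutants (edgeR adjusted p = 0.691). Serpina4-ps1 had 6 reads, all in control replicate 1, while Serpina1f and Serpina3k had 2 reads each, all in mutant replicate 2.

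Clades C to I hold the secreted regulators of clotting, fibrinolysis and complement, and the collagen chaperone. Serpine3 was at 5.83 and 3.98 CPM in controls and 5.22 and 5.16 CPM in mutants, with overlap.

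Serpinh1 encodes HSP47, which helps procollagen fold in the endoplasmic reticulum. It was at 69.1 and 70.2 CPM in controls and 75.3 and 90.6 CPM in mutants (log2 fold change 0.25 ± 0.16 SE, edgeR adjusted p = 0.458). Of 14 genes for collagens and their folding enzymes 2 rose, Col5a1 (log2 fold change 1.18 ± 0.14 SE) and the lysyl hydroxylase gene Plod2 (1.48 ± 0.19 SE), and none fell, with a median of 0.48, while 5.68% of all tested genes rose. Col1a1, Col1a2 and Col3a1 of this list are also among the fibroblast markers, whose median was 0.54, and the part of fibroblasts was not tested. Serping1, the inhibitor of the complement C1 proteases, was at 5.83 and 7.16 CPM in controls and 10.6 and 8.73 CPM in mutants (edgeR adjusted p = 0.392). Serpinf1, the antiangiogenic factor PEDF, was at 6.67 and 9.61 CPM in controls and 8.33 and 8.20 CPM in mutants, with overlap. Antithrombin (Serpinc1) and heparin cofactor II (Serpind1) stayed under 4 CPM in every library, and for Serpinc1 58.4% of the 100-base runs also occur in Zbtb37 transcripts.

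Lists of proteases, not all of them known targets of serpins, and the other protease inhibitors of skin were read in the same fit. Over all tested genes 5.68% rose and 1.04% fell. Of 9 tested kallikreins, the serine proteases of desquamation, Klk5 rose from 4.47 to 12.5 CPM (log2 fold change 1.51 ± 0.34 SE, edgeR adjusted p = 0.0255) and Klk13 fell from 17.6 to 8.09 CPM (-1.10 ± 0.28 SE, edgeR adjusted p = 0.0418), with a list median of -0.21. Serpinb2 and Serpine2 restrain plasminogen activation, and the list made for it also held the prothrombin gene F2 and the protease receptor genes F2r and F2rl1. None of its 6 tested genes passed (median 0.14), and the plasminogen gene Plg was too low to be tested. In that list the urokinase gene Plau was at 23.3 and 25.2 CPM in controls and at 18.2 and 17.5 CPM in mutants (log2 fold change -0.44 ± 0.21 SE, edgeR adjusted p = 0.292). The receptor genes F2rl1 and F2r, its most abundant members, had log2 fold changes of 0.26 and 0.34.

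Beside the lists that follow, 5.68% of all tested genes rose and 1.04% fell. Of 9 tested membrane serine proteases Tmprss13 fell from 39.7 to 23.1 CPM (log2 fold change -0.79 ± 0.20 SE, edgeR adjusted p = 0.0437) and none rose. Of 4 tested complement C1 and related proteases C1s1 fell from 15.7 to 5.42 CPM (-1.52 ± 0.29 SE, edgeR adjusted p = 0.00970). None of 13 tested cathepsins passed, with Ctsd and Ctsb, the most abundant, at log2 fold changes of 0.14 and 0.01, and none of the 3 tested granule proteases passed, with the mast cell genes Cma1 and Mcpt4 at -0.14 and -0.22. Of 13 tested inhibitors outside the family, Timp2, an inhibitor of metalloproteinases, rose from 33.6 to 115 CPM (1.78 ± 0.19 SE, edgeR adjusted p = 0.000453) and none fell. A rise in 1 of 13 is close to the share of all genes.

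The promoters of the Serpin genes were mostly poor in CpG. A RefSeq promoter window was matched by symbol for 53 of the 64 genes, with the most upstream RefSeq start taken for each. The median number of CG pairs per 300 bases was 2 in Serpinb genes, 4 in the other clades and 20 over all tested genes with a window. Genes that rose in the whole data had a median of 22.0 and those that fell 13. Only 6 of the 53 Serpin windows held at least 10 CG pairs: those of Serpine2 (41), Serpinb6a (25), Serpinh1 (16), Serpini1 (15), Serpina3a (11) and Serpinb6c (10). Of these 6 genes Serpine2 passed the test, and Serpina3a and Serpinb6c were too low to be tested. Serpinb2 rose with 1 CG pair.

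**Figure D4:**
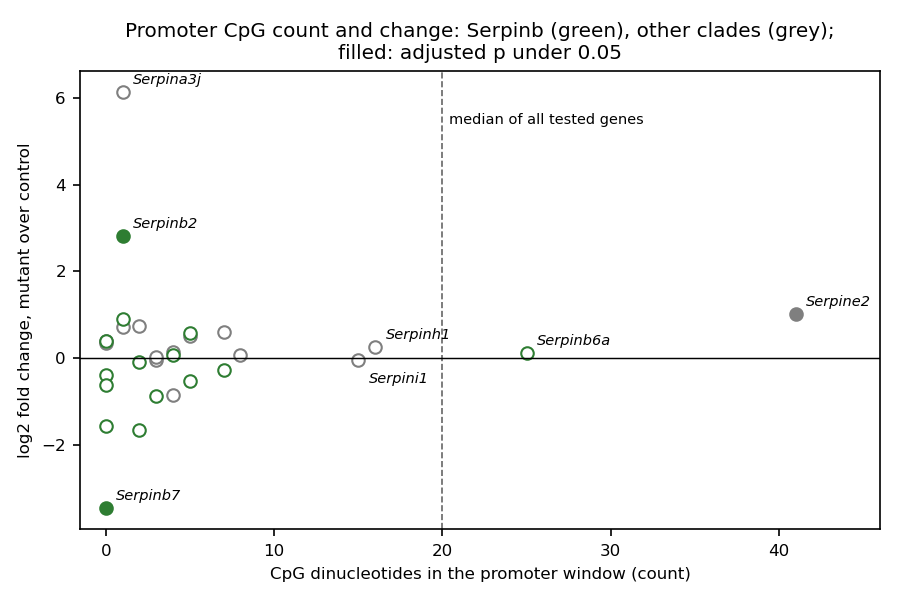
Number of CG pairs in the promoter window of these Serpin genes, where one was matched, against the log2 fold change, mutant over control. Clade B is green, the other clades are grey, filled points passed the test, and the dashed line is the median of all tested genes (20); Serpinb2 and Serpinb7 lie at the left edge and Serpine2 at 41.

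The TGANTCA letters occurred, on either strand, in the windows of 7 of the 15 tested Serpinb genes with a window, in none of the 15 tested genes of other clades, and in 5.07% of all tested genes. The 7 were Serpinb2, Serpinb5, Serpinb7, Serpinb8, Serpinb10, Serpinb11 and Serpinb12, all of the chromosome 1 cluster. Among genes too low to be tested, 4 Serpina windows also held the letters. The log2 fold changes of the 7 Serpinb genes spanned -3.46 to 2.81, with 3 above 0 and 4 below. TATAAA was in 6 of the 15 Serpinb windows, in 3 of the 15 others and in 7.34% of all tested genes. A match describes the letters of this window only.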

How the data were processed

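Whole-number read counts, not normalized, were deposited for 4 libraries with 1 value per symbol. Per the labels' protocols, RNA of sorted cells was amplified before library construction and read as single reads of 100 bases. Tools named in the submitters' processing notes, with mm10, are HTSeq 0.6.1, TopHat2 2.0.13, DESeq2 1.6.3 and Cufflinks 2.2.1. Sources used here do not give the annotation, strand setting or counting step, so reads of overlapping genes on opposite strands may not be separated.

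The family and the lists of related genes were chosen with earlier results of these data known. Genes passing filterByExpr (minimum count 10, minimum total 15) were scaled with TMM and compared, without a block, by the current quasi-likelihood test of edgeR 4.0.16 (R 4.3.3) over 14550 genes, two-sided, with Benjamini-Hochberg adjustment at 0.05. Fold changes compare mutant with control on the log2 scale, with an SE of the coefficient over the root of its F value. Library sizes for CPM were scaled by TMM. Named are the Serpin genes that passed, those with a mean of at least 5 CPM or a log2 fold change of at least 1 in either direction, and those read in 1 group only. From each related list up to 3 genes that rose and 3 that fell are named, or the 2 most abundant, and other genes were chosen after their values were seen. Positions and transcript lengths came from GENCODE M21 (97.3% of symbols matched) and promoters from RefSeq on GRCm38.p6. Runs of 100 bases of each longest Serpin transcript were sought in all other genes' transcripts. The procedure was tested on simulated data with 50 of 14550 genes changed. At changes of 1.5-, 2-, 4- and 8-fold it recovered 14%, 60%, 90% and 88% of them, with 14 false calls at each. A gene that did not pass may therefore still have changed, above all by 2-fold or less. The replicates of each group differed by more than sampling noise (chi-square per degree of freedom 13.6 and 44.3). Alternatives were upper-quartile or RLE scaling, no filter or 1 CPM in 2 libraries, limma-voom with limma 3.58.1, DESeq2 1.42.0, each library left out, the replicate number as a block, and loess offsets (span 0.5) for GC content and length, alone and with the block. The earlier quasi-likelihood fit was added after the data were seen. The values of 1 tested Serpin gene are not reported here, and it is counted in the totals but left out of the plots.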

Additional observations from a re-analysis of the deposited data

How the results depend on the processing

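Serpinb7 and Serpinb2 passed the test with the same direction in each of the 14 alternative settings, and Serpine2 in 12. Over 23 named Serpin genes and these settings, 286 values kept direction and side of the threshold, 26 newly passed, 2 no longer passed and 7 turned sign, none of them past the threshold. The log2 fold change of Serpina3b ran from -0.45 to 1.15 and that of Serpina3i from -0.066 to 0.71 without each library, with the lowest without mutant replicate 1. That of Serpinb6b ran from -0.14 to 0.32 and that of Serpine3 from -0.17 to 0.38, with the lowest without control replicate 2. That of Serpinf1 ran from -0.22 to 0.31, with the lowest without control replicate 1, and was -0.066 with offsets for GC content and length and -0.060 with these and the block. The cause of these turns was not tested. Higher Serpin genes numbered 2, and 5 with DESeq2, 4 with the replicate block, 5 with offsets and block, and 1 to 6 without each library. Lower Serpin genes numbered 1, and 2 with DESeq2, RLE scaling, no low-count filter, the replicate block, the offsets, and both, and 1 to 2 without each library. Serpinb genes that passed numbered 2, and 4 with DESeq2, the replicate block, and offsets with block, and 2 to 4 without each library. Those of other clades numbered 1, and 3 with DESeq2 and with offsets and block, 2 with RLE or upper-quartile scaling, no filter, the 1 CPM filter, the block, the offsets and the earlier fit, and 0 to 4 without each library. With 0 called, without control replicate 1 or 2, 2 and 4 genes of other clades had an unadjusted p under 0.05 by edgeR. Related genes that passed numbered 7, and 3 to 13 without each library. Over all genes, 826 were higher and 151 lower. The lower genes numbered 229 with DESeq2, 232 with the block, 561 with the offsets (56.9% of calls higher, against 84.5%) and 815 with offsets and block, and 34 to 389 without each library, where the higher numbered 258 to 1131. Over all genes the median log2 fold change was -0.01, and -0.11 under the offsets. The labels do not say what the replicate numbers share, and deviations of same-numbered libraries correlated at 0.0454. Leaving out a library leaves its group with 1, which is assumed to vary like the other group, and low read numbers limit what could be called for the least abundant genes.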
